A study of Homo sapiens with 36 samples.

Results

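The vehicle-treated baseline of WiT49, an anaplastic Wilms tumor cell line, was described from 6 total RNA libraries of cells kept in dimethyl sulfoxide (DMSO), 3 after 6 h and 3 after 72 h, out of 36 libraries in the series. They were chosen by label, and no measured value entered the choice. The series compared DMSO with 2 nM actinomycin D, a DNA-binding drug used in chemotherapy for this tumor, by RNA sequencing and by ribosome footprints. The labels name no engineered allele in either group, and the cells received no drug, so the groups differ in the labels only by the time in DMSO. RNA libraries were made from total RNA with stranded kits, and the labels name 2 extraction kits and 2 library kits without saying which library had which. The labels do not say whether the 3 replicates of a group came from separate cultures, so the spread given here may be technical.

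Wilms tumor is a childhood kidney cancer whose cells resemble the embryonic kidney, and its tissue can hold blastema, epithelium and stroma. In the embryonic kidney, SIX2-positive progenitors of the cap mesenchyme give rise to the nephron from podocyte to distal tubule, the ureteric bud gives rise to the collecting duct, and FOXD1-positive cells give rise to the stroma. Common lesions of these tumors touch WT1, the beta-catenin pathway, imprinting at IGF2 and H19, microRNA processing and MYCN.

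Levels are given as TPM, a relative transcript level, here deposited counts per kb of exon, scaled to the same total in each library over its 19767 nuclear protein-coding genes. A gene is called detected where it reached 1 TPM in all 3 libraries of a table. Each time point was deposited as a table of its own, and the 2 tables were not on the same count scale: in 6 h replicate 1, 1181, 1140 and 1811 genes held 1, 2 and 3 counts, a pile-up at 3 that the 72 h libraries did not show. Time in culture, library batch and table therefore cannot be told apart, and values at 6 h and 72 h stand side by side with no test between them. In these bulk libraries a marker carried by fewer cells and a marker with less RNA per cell cannot be told apart either.

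The libraries held between 40221994 and 69240041 counts. At 72 h replicate 3 stood apart from the other 2 replicates. Ribosomal protein genes (86 genes) took 15.87% of its TPM against 9.49% and 8.90% in replicates 1 and 2, and histone genes (71 genes) took 3.64% against 9.13% and 10.5%. In the 3 libraries at 6 h the ribosomal protein share was 9.08% to 9.61% and the histone share 8.83% to 11.7%. Levels differed at least 2-fold between the lowest and the highest library in 20.1% of 9244 genes with a mean of 10 TPM at 72 h and in 4.63% of 9534 such genes at 6 h. Of the 1856 genes at 72 h, 982 had their lowest value in replicate 3. Spearman's rho between libraries, over 19767 genes, was 0.984 to 0.987 within 6 h, 0.964 to 0.980 within 72 h and 0.944 to 0.969 between the tables.

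The plot of gene types shows what the counts consisted of. Nuclear protein-coding genes took 71.8%, 75.2% and 75.7% of the counts in the 3 libraries at 6 h and 61.8%, 65.5% and 66.4% at 72 h. The 2 mitochondrial ribosomal RNAs took 7.76% ± 0.679 at 6 h and 19.1% ± 3.51 at 72 h (SD, n = 3 each), and the libraries of the 2 tables did not overlap. MT-RNR2, the large one, accounted for most of this, with 7.65%, 6.59% and 6.49% at 6 h against 21.1%, 17.7% and 14.1% at 72 h. With the mitochondrially encoded genes left out of the total, the protein-coding share was 80.8% at 6 h and 81.2% at 72 h. RN7SL1 and RN7SL2, the RNA of the signal recognition particle that guides secreted proteins to the endoplasmic reticulum, took 4.29% ± 0.550 and 4.78% ± 0.728 at 6 h and 1.81% ± 1.33 and 2.19% ± 0.570 at 72 h (SD, n = 3 each). RN7SL1 was lowest in replicate 2 at 72 h, with 0.307%. RN7SK, which holds back the elongation factor P-TEFb, took 2.05% ± 0.0536 at 6 h and 1.10% ± 0.608 at 72 h (SD, n = 3 each). RF00100, a second entry at the locus of RN7SK on the same strand, took 0.467% and 0.627% in replicates 1 and 2 at 72 h, 0.0026% in replicate 3 and less at 6 h, so the RN7SK share at 72 h depends on how reads were divided between the entries. RPPH1, the RNA of ribonuclease P, took 1.54% ± 0.155 and 1.07% ± 0.196.

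**Figure D1:**
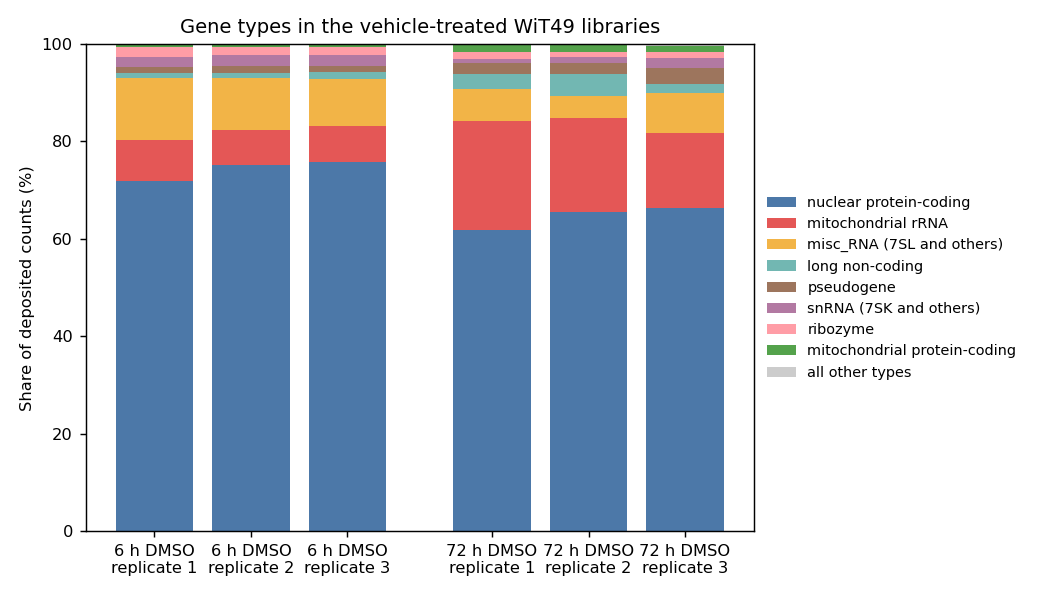
Share of deposited counts (%, y axis) by gene type in each of the 6 vehicle libraries (x axis), stacked to 100%. Mitochondrial ribosomal RNA takes 7.76% on average at 6 h and 19.1% at 72 h, and the protein-coding share is smaller at 72 h.

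Long non-coding genes took 1.196% ± 0.211 of the counts at 6 h and 3.05% ± 1.35 at 72 h (SD, n = 3 each). At 6 h the highest per kb was MALAT1, a nuclear RNA of splicing speckles, at 828, 1488 and 2033 TPM, and NORAD, a cytosolic RNA that binds PUMILIO proteins, stood at 415, 453 and 492 TPM. At 72 h MALAT1 was at 1475, 3653 and 3037 TPM and NORAD at 573, 588 and 951 TPM. AC006064.5, annotated as sense intronic at chr12:6510275-6510522, was at 811, 698 and 1167 TPM at 6 h. At 72 h it was at 2163, 1488 and 6366 TPM. AC245014.3 was at 399.7 ± 40.7 TPM at 6 h (SD, n = 3), whereas AL360012.1 had no count in 1 library of each table and 381 to 461 TPM in the other 4 libraries. Genes of the FP236383 and FP671120 series on chromosome 21, most of which overlap RefSeq copies of the 18S or 45S ribosomal RNA, took 2.09% and 2.49% of the counts in replicates 1 and 2 at 72 h, 0.146% in replicate 3, and at most 0.00709% in any library at 6 h. The long non-coding gene of highest mean at 72 h, AL139099.4, owed it to 1 library, with 17.8, 115200 and 39.98 TPM at 72 h. It spans the same bases as RN7SL1 on the same strand (chr14:49586579-49586878), and replicate 2 is also the library in which RN7SL1 was lowest, so the reads of these entries cannot be told apart.

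Of 19767 nuclear protein-coding genes, 12880 (65.2%) were detected at 6 h and 12391 (62.7%) at 72 h, and 12582 at 72 h without replicate 3. Both tables shared 12178 of these genes, 702 were detected at 6 h alone and 213 at 72 h alone. No count in any of the 6 libraries was found for 2571 genes (13.01%). At 10 TPM or more in all 3 libraries stood 9014 genes (45.6%) at 6 h and 8370 (42.3%) at 72 h. The 10, 100 and 1000 genes of highest level held 6.36%, 25.9% and 57.7% of the TPM at 6 h and 6.70%, 25.8% and 58.7% at 72 h.

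Housekeeping, cytoskeletal, histone and ribosomal protein genes led the protein-coding ranks. GAPDH, an enzyme of glycolysis, had rank 1 at 6 h with 9519, 9413 and 8791 TPM and rank 3 at 72 h with 7503, 9398 and 8098 TPM. FTL, the light chain of the iron store ferritin, was at 8386, 8246 and 8513 TPM at 6 h. At 72 h it was at 5263, 4080 and 15970 TPM, so replicate 3 was far above the other 2 replicates. ACTB and ACTG1, the cytoplasmic actins, were at 7018 ± 1251 and 5073 ± 649 TPM at 6 h and at 2379 ± 254 and 1766 ± 226 TPM at 72 h (SD, n = 3 each). TMSB10, which binds actin monomers, was at 6274 ± 1042 and 4714 ± 390 TPM. EEF1A1, the elongation factor that brings aminoacyl-tRNA to the ribosome, was at 5725 ± 539 and 6572 ± 2672 TPM. Among the ribosomal protein genes, RPS12 was at 4965, 5087 and 4747 TPM at 6 h and rank 1 at 72 h with 6390, 5977 and 13750 TPM. RPL19 and RPS27 were in the first 15 of both tables, and RPS18 in those of 72 h. NPM1, a nucleolar chaperone, was at 3137 ± 341 and 4802 ± 366 TPM. The first 15 genes of the tables had 8 genes in common, and the first 100 had 81.

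Histone genes made up 32 of the first 100 genes at 6 h and 27 at 72 h. Most histone messages of dividing cells end in a stem-loop with no poly(A) tail and are made in S phase, and total RNA libraries keep them. HIST1H1E, a linker histone, was at 6468, 5764 and 4749 TPM at 6 h and at 5892, 4854 and 2638 TPM at 72 h. HIST2H2AC, a core histone of the H2A type, was at 5394, 5010 and 4210 TPM at 6 h and at 3280, 5542 and 1461 TPM at 72 h. In both genes replicate 3 at 72 h was the lowest of all 6 libraries. HIST1H1C stood at 4297 ± 588 and 3854 ± 672 TPM, HIST1H4C at 3388 ± 405 and 4043 ± 1137 TPM, HIST1H2BK at 5334 ± 729 and 2038 ± 919 TPM, and HIST1H3B at 4309 ± 542 and 3086 ± 1637 TPM (SD, n = 3 each). HIST2H2AA3 and HIST2H2AA4, at 5070 ± 735 and 5345 ± 772 TPM at 6 h, are near-identical copies whose values depend on how reads were divided between them.

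Because histone genes led the ranks, the promoters of 3 of them are shown beside those of 3 genes of other kinds. Each sequence is the 100 bases before the most upstream RefSeq start at hand (GRCh38.p14), 5′ to 3′ on the gene's strand. For GAPDH it lies inside the gene as annotated here (chr12:6533927-6538374), so any start further upstream is not shown. Capitals mark TATAAA on the gene's strand and CCAAT or GGGCGG on either strand. ATTGG and CCGCCC are thus the same motifs read backwards. The first 3 are histone genes, GAPDH is the most abundant nuclear protein-coding gene at 6 h, and MYCN and LIN28B are tumor genes described further on.
HIST1H1E, chr6:26156229-26156328, plus strand: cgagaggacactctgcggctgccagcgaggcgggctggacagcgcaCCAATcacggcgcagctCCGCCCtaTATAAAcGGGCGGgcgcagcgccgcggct
HIST1H1C, chr6:26056471-26056570, minus strand: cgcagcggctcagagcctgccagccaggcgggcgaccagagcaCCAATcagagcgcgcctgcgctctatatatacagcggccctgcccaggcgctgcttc
HIST2H2AC, chr1:149886818-149886917, plus strand: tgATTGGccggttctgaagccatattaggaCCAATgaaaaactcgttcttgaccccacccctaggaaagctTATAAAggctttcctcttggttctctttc
GAPDH, chr12:6535164-6535263, plus strand: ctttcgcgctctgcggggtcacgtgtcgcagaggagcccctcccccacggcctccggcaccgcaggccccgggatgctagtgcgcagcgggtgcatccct
MYCN, chr2:15940450-15940549, plus strand: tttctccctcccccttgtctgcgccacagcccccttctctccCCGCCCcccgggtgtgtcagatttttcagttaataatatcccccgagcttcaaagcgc
LIN28B, chr6:104940865-104940964, plus strand: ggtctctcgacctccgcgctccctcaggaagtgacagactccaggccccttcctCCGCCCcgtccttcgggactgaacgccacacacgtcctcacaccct

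A RefSeq promoter was at hand for 61 of the 71 histone genes (85.9%). TATAAA lay between 40 and 16 bases before the start in 32 of them (52.5%). Within the 250 bases before the start, CCAAT lay in 51 of the 61 (83.6%) and GGGCGG in 17 (27.9%). Among all genes with a mean of 100 TPM or more at 6 h, histone genes included, 1600 of 1908 (83.9%) had a promoter, and the shares were 4.06% for TATAAA, 40.6% for CCAAT and 68.0% for GGGCGG. In all 15240 promoters matched, 3.71% held TATAAA, 34.8% held CCAAT and 56.6% held GGGCGG, each in the window given for it above. Genes with a mean under 10 TPM had a promoter too seldom (70.7% to 75.8%) for shares of their own. They are therefore under-represented in the shares over all matched promoters. A match to these letters is a description of the sequence and not a site in use.

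Kidney lineage genes were present as a partial set. Of 20 genes of the nephron progenitor list, 8 were detected at 6 h and 7 at 72 h, a smaller share (40% and 35%) than over all protein-coding genes (65.2% and 62.7%). Without replicate 3 the count at 72 h was 9, and with a threshold of 0.5 TPM it was 13 at 6 h. WT1 and 2 HOX genes reached 10 TPM in all 6 libraries. HOXA11, a HOX factor needed for the metanephric kidney, was at 127, 113 and 98.4 TPM at 6 h and at 48.8, 45.3 and 39.2 TPM at 72 h. HOXC11 was at 18.5 ± 2.33 and 13.4 ± 1.65 TPM (SD, n = 3 each). WT1, the zinc finger factor of nephron progenitors and podocytes (chr11:32387775-32435630, minus strand), was at 16, 13.9 and 10.7 TPM at 6 h and at 12.6, 13.3 and 15.7 TPM at 72 h. The WT1 values of the 2 tables overlapped, and its rank was 8685 and 8356 of 19767.

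Other progenitor factors named here were low. SIX2, which keeps the progenitors from differentiating, was at 1.01, 0.595 and 1.37 TPM at 6 h and at 0.951, 0.788 and 0.0837 TPM at 72 h. OSR1, a factor of the intermediate mesoderm, was at 4.89 ± 0.157 and 3.07 ± 1.504 TPM (SD, n = 3 each). EYA1, the coactivator of SIX2, did not pass 0.171 TPM in any library, SALL1 did not pass 0.342 TPM and PAX2, needed for the change from mesenchyme to epithelium, did not pass 0.554 TPM.

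**Figure D2:**
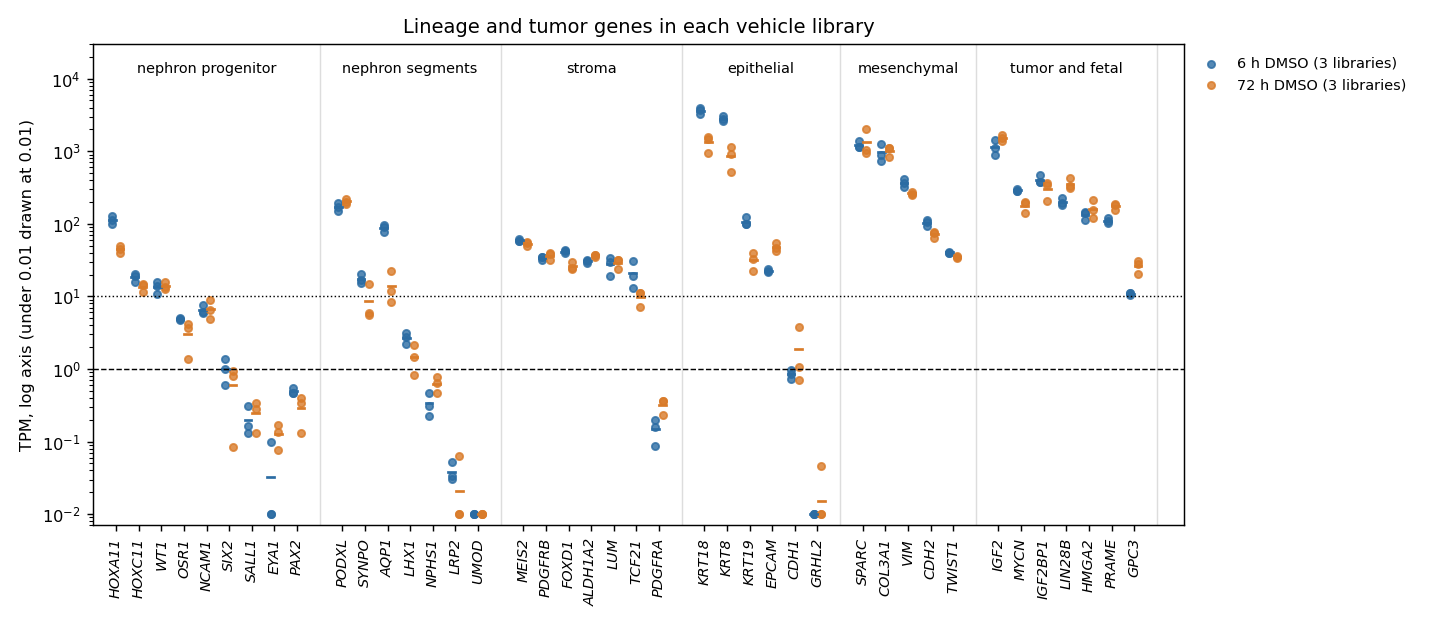
TPM on a log axis (y) of lineage and tumor genes (x) in each library, blue for 6 h and orange for 72 h, with short bars at the mean of 3 libraries, a dashed line at 1 TPM and a dotted line at 10 TPM. KRT18, SPARC and IGF2 lie near or above 1000 TPM, WT1 near 10 TPM, and SIX2, SALL1, EYA1 and PAX2 at or below about 1 TPM.

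Lists of the later nephron were detected in smaller shares than all protein-coding genes. Of 11 genes of the renal vesicle list, 5 were detected at 6 h and 4 at 72 h, and none reached 10 TPM in all 3 libraries of a table. Those detected at 6 h, named after their values were seen, were JAG1, a Notch ligand, at 7.38 ± 0.501 TPM, IRX3 at 7.05 ± 1.01 TPM, CDH6 at 3.41 ± 0.976 TPM, WNT4, which drives the change to epithelium, at 3.03 ± 0.852 TPM, and LHX1 at 2.69 ± 0.452 TPM (SD, n = 3 each). HNF4A, a driver of proximal tubule fate, was at 0.202 TPM or less in every library, and POU3F3 did not pass 0.910 TPM. Of 8 podocyte genes, 3 were detected in each table. PODXL, the sialomucin podocalyxin that coats podocytes and many embryonic cells, was at 151, 172 and 194 TPM at 6 h and at 199.6, 222 and 188 TPM at 72 h. The other 2 were SYNPO and TCF21, named after their values were seen. NPHS1, the nephrin gene of the slit diaphragm, stayed at or below 0.777 TPM.

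Of 10 proximal tubule genes 1 was detected in each table, the water channel gene AQP1. It was at 77.8, 89.1 and 95.2 TPM at 6 h and at 11.8, 8.27 and 22.1 TPM at 72 h, and it was named after its values were seen. LRP2 and CUBN, the endocytic receptors of this segment, did not pass 0.068 TPM, and SLC34A1, its phosphate carrier, did not pass 0.0815 TPM. Of 8 genes of the loop of Henle and distal tubule, 0 were detected at 6 h and 1 at 72 h. This was EGF, at 1.32 to 1.63 TPM, named after its values were seen. UMOD, the most abundant urinary protein of the healthy kidney, had no count, and SLC12A1 and SLC12A3, its salt carriers, did not pass 0.119 TPM. Of 10 genes of the ureteric bud and collecting duct, 4 were detected in each table and none reached 10 TPM in all 3 libraries of a table. RET, the receptor on the bud tip for GDNF, was at 0.374 to 0.623 TPM, WNT9B at 0.166 TPM or less, and TFAP2B had no count. These 3 are among the 6 genes of the list below 1 TPM in all 6 libraries. The 4 detected genes are not named here, and the whole list summed to 11.4 to 18.5 TPM at 6 h.

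Stromal genes were detected in a larger share. Of 11 genes of the renal stroma list, 9 (81.8%) were detected in each table, with and without replicate 3 at 72 h, against 65.2% and 62.7% of all protein-coding genes. FOXD1, the transcription factor that marks stromal progenitors, was at 41.8, 43.0 and 39.0 TPM at 6 h and at 29.3, 24.7 and 23.5 TPM at 72 h. MEIS2, a homeodomain partner of HOX proteins, was at 59.5 ± 1.86 and 53.4 ± 3.12 TPM. ALDH1A2, which makes retinoic acid, was at 30.4 ± 1.30 and 36.6 ± 1.52 TPM (SD, n = 3 each). PDGFRB, the receptor of pericytes and mesangial cells, was at 33.9 ± 1.80 and 36.4 ± 3.69 TPM, whereas its paralog PDGFRA was at 0.360 TPM or less. Some stroma genes also belong to other lists, as TCF21 does to the podocyte list.

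Genes of mesenchymal cells and the keratins of simple epithelia were both abundant. Of 16 genes of the mesenchymal list, 13 (81.25%) were detected in each table, against 65.2% and 62.7% of all protein-coding genes. SPARC, a matrix glycoprotein, was at 1365, 1152 and 1149 TPM at 6 h and at 1037, 931 and 1992 TPM at 72 h. COL3A1, a fibrillar collagen, was at 962 ± 282 and 1013 ± 168 TPM, VIM, the intermediate filament of mesenchymal cells, at 369 ± 47.7 and 263 ± 12.4 TPM, and S100A4 at 320 ± 57.0 and 288 ± 135 TPM (SD, n = 3 each). COL1A2 was listed at 0 in all 6 libraries, and whether this reflects the cells or the counting was not tested.

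Of 16 genes of the epithelial list, 9 (56.25%) were detected at 6 h and 8 (50%) at 72 h, below the share over all protein-coding genes. KRT18 and KRT8, which pair as the filament of simple epithelia, were nevertheless among the leading genes of the cells. KRT18 was at 3986, 3656 and 3204 TPM at 6 h and at 1556, 1465 and 949 TPM at 72 h, with rank 21 and 87. KRT8 was at 2807 ± 267 and 867 ± 321 TPM, KRT19 at 107.4 ± 16.03 and 31.3 ± 8.37 TPM, and TJP1, a scaffold of tight junctions, at 81.6 ± 7.14 and 77.1 ± 29.7 TPM (SD, n = 3 each). KRT18, KRT8 and KRT19 were at least 2-fold lower at 72 h with no overlap of libraries. So were 9.16% of 9474 genes at 10 TPM or more in all 3 libraries of a table. Among regulators of epithelium, ESRP2 was at 0.989 TPM or less, GRHL2 at 0.0457 TPM or less and OVOL1 at 0.143 TPM or less. ESRP1, the paralog of ESRP2 and like it a splicing regulator, was detected in both tables, at 2.39, 2.84 and 3.03 TPM at 6 h and at 4.77, 4.78 and 10.7 TPM at 72 h, and was named after its values were seen. CDH1, the epithelial cadherin, was at 0.705 to 3.82 TPM, and CDH2, the cadherin of mesenchymal and neural cells, at 64.7 to 111.3 TPM. CDH2 exceeded CDH1 from 16.9-fold to 129-fold in the same library, with the smallest ratio in replicate 3 at 72 h. CDH1 was named after its values were seen.

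Within the intermediate filament list of 20 genes, 17 (85.0%) were detected at 6 h and 15 (75.0%) at 72 h. Over all protein-coding genes the shares were 65.2% and 62.7%. LMNB1, a lamin of the nuclear envelope, was at 355 ± 39.3 and 312 ± 152 TPM (SD, n = 3 each). GFAP, KRT5 and KRT14, filaments of glia and of stratified epithelium, were at 0.151 TPM or less. In the cadherin list 10 of 16 were detected in each table, near the share over all genes. FAT1, a giant protocadherin, was at 91.6 ± 7.11 and 119.9 ± 17.6 TPM, below CDH2 at 6 h and above it at 72 h, and CDH24 and PCDH7 were at 39.9 ± 3.27 and 17.8 ± 3.78 TPM at 6 h. CDH5 and the kidney cadherin gene CDH16 were at 0.0379 TPM or less. Of 18 integrin genes, 13 (72.2%) were detected in each table, beside the same 65.2% and 62.7% over all genes. ITGB1, the shared beta subunit, was at 148, 169.8 and 171 TPM at 6 h and at 310.4, 261 and 339 TPM at 72 h. ITGAV stood at 69.1 ± 17.2 TPM, ITGA5 at 24.1 ± 2.08 TPM and ITGB5 at 18.8 ± 0.940 TPM at 6 h.

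The plot of list detection also shows lists of other lineages, beside the 65.2% at 6 h and 62.7% at 72 h of all protein-coding genes. Of 14 skeletal muscle genes, 3 were detected at 6 h and 2 at 72 h. The 2 that reached 10 TPM in all libraries were TNNT2, the cardiac troponin T, at 25.3 ± 9.51 and 19.2 ± 6.25 TPM, and DES, the muscle filament desmin, at 17.5 ± 1.44 and 21.9 ± 3.78 TPM (SD, n = 3 each). The muscle regulators MYOD1, MYOG and MYF5 had no count, where 3 counts at 72 h would have been at most 0.317 TPM. Of 12 neural genes, 7 (58.3%) were detected in each table, near the share over all genes, led by TUBB3, a neuronal tubulin, at 48.2 ± 10.2 and 44.8 ± 23.2 TPM, with NES and ENO2 at 20.7 ± 3.32 and 23.6 ± 4.64 TPM at 6 h. CHGA did not pass 0.916 TPM and STMN2 had no count. Of 8 endothelial genes, 2 were detected in each table, 1 of them FLT1. The other was ERG at 6 h, at 1.57, 2.28 and 2.42 TPM, and KDR at 72 h, at 1.38, 1.17 and 4.245 TPM. ERG and KDR were named after their values were seen. FLT1, a receptor for VEGF, was at 71.4, 75.1 and 72.2 TPM at 6 h and at 28.95, 29.5 and 37.7 TPM at 72 h, while PECAM1 and CDH5, which define endothelium, were at 0.0528 TPM or less and VWF at 0.591 TPM or less. Of 10 blood and immune genes, 2 were detected at 6 h, 0 at 72 h and 2 at 72 h without replicate 3. Those at 6 h were CD68 at 3.425 ± 0.0289 TPM and HBA1 at 2.54 ± 0.951 TPM (SD, n = 3 each). Both were named after their values were seen. PTPRC, the common leukocyte antigen, was at 0.292 TPM or less and CD3E, a T cell receptor subunit, at 0.0810 TPM or less.

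**Figure D3:**
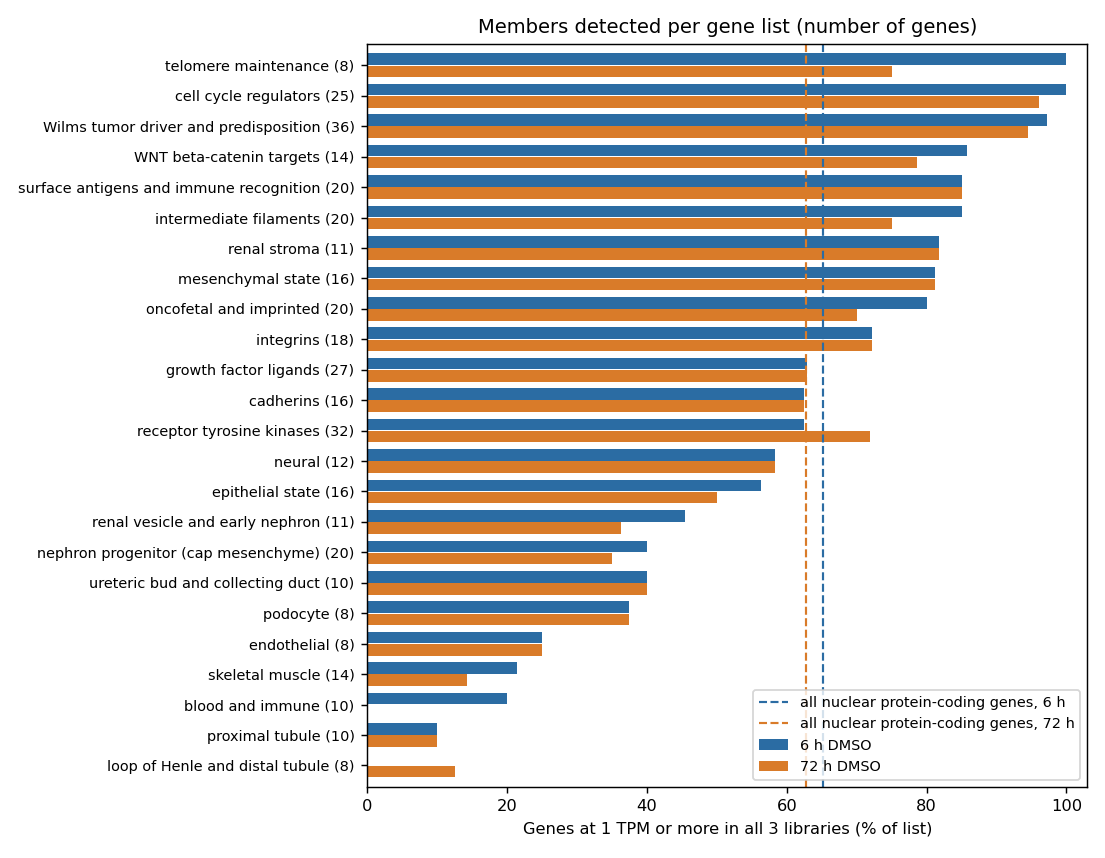
Percent of each list's genes at 1 TPM or more in all 3 libraries (x axis) for 24 gene lists (y axis, number of genes in parentheses), blue for 6 h and orange for 72 h, with dashed lines at the share over all nuclear protein-coding genes (65.2% and 62.7%). Cell cycle, Wilms tumor driver, stromal and mesenchymal lists lie to the right of the lines and nephron segment, muscle, endothelial and blood lists to the left.

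Nearly the whole list of genes mutated or inherited in Wilms tumor was detected, 35 of 36 (97.2%) at 6 h and 34 (94.4%) at 72 h. Over all protein-coding genes the shares were 65.2% and 62.7%. The count at 72 h was also 34 without replicate 3. WT1, a member of this list too, is given above. CTNNB1, the beta-catenin gene, was at 189.7, 179.5 and 197 TPM at 6 h and at 175, 172 and 104 TPM at 72 h. AMER1, an X-linked brake on beta-catenin, was at 46.7, 48.8 and 56.4 TPM at 6 h and at 25.8, 6.25 and 18.95 TPM at 72 h. DROSHA and DGCR8, the pair that cuts microRNA precursors in the nucleus, were at 63.8 ± 6.01 and 28.1 ± 3.66 TPM at 6 h and at 60.6 ± 18.1 and 12.8 ± 5.16 TPM at 72 h (SD, n = 3 each). Gene levels do not show whether a gene is mutated.

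IGF2, the fetal growth factor of an imprinted locus (chr11:2129112-2149603, minus strand), led the list. It was at 887, 1100 and 1439 TPM at 6 h, rank 102, and at 1497, 1398 and 1657 TPM at 72 h, rank 73. H19, the long non-coding neighbour that is imprinted in the opposite way, was at 1.80, 2.29 and 1.80 TPM at 6 h and at 0.111, 0.350 and 0.0318 TPM at 72 h, and it was named after its values were seen. NONO, an RNA-binding paraspeckle protein, was at 553 ± 154 and 505 ± 224 TPM. TRIM28, a corepressor that also serves as an inherited risk gene, was at 344, 336 and 351 TPM at 6 h and at 160.2, 227 and 79.2 TPM at 72 h. MYCN (chr2:15940564-15947007, plus strand), the MYC family member of embryonal tumors, was at 304, 281 and 285 TPM at 6 h and at 199.6, 195 and 139 TPM at 72 h, with rank 498 and 969. MYC was at 2.51, 1.97 and 4.61 TPM at 6 h and at 0.269, 0.434 and 0.738 TPM at 72 h, so MYCN stood 61.8 to 742 times above MYC within a library. MYC was named after its values were seen.

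Fetal RNA-binding and chromatin proteins were also high. Of 20 genes of the oncofetal and imprinted list, 16 (80%) were detected at 6 h and 14 (70%) at 72 h. Without replicate 3 the count at 72 h was 15. Over all protein-coding genes the shares were 65.2% and 62.7%. IGF2BP1, which binds IGF2 and MYC messages, was at 374, 375 and 472 TPM at 6 h and at 341, 363 and 203 TPM at 72 h. LIN28B, which blocks maturation of let-7 microRNAs, was at 193, 226 and 180.4 TPM at 6 h and at 433, 331 and 312 TPM at 72 h. Its paralog LIN28A, named after its values were seen, was at 0.503 to 1.84 TPM. HMGA1, an architectural chromatin protein, was at 170 ± 11.9 and 141 ± 62.7 TPM (SD, n = 3 each). MEG3, a maternally expressed long non-coding RNA, had a count only in 72 h replicate 2, at 0.00624 TPM, and the fetal liver gene AFP had none.

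Proliferation genes were detected almost throughout, 25 of 25 cell cycle regulators (100%) at 6 h and 24 (96.0%) at 72 h. The shares over all protein-coding genes were 65.2% and 62.7%. CCNB1, the mitotic cyclin, was at 723, 681 and 638 TPM at 6 h and at 653, 548 and 276 TPM at 72 h. TOP2A, the topoisomerase of dividing cells, was at 349, 596 and 609 TPM at 6 h and at 709, 806 and 286 TPM at 72 h. CCND1, the G1 cyclin, was at 556 ± 42.0 and 460 ± 77.4 TPM and PCNA, the sliding clamp of replication, at 395 ± 55.9 and 377 ± 143 TPM (SD, n = 3 each). MKI67, named after its values were seen, was at 45.9, 116 and 156 TPM at 6 h and at 74.3, 153 and 10.7 TPM at 72 h. For CCNB1, TOP2A, PCNA and MKI67 the value of 72 h replicate 3 was the lowest of the 6, whereas for CCND1 it was the highest at 72 h. Replicate 3 also had the lowest histone share, and how far the cell cycle values of that library moved with it was not tested. Of 8 telomere genes, 8 (100%) were detected at 6 h and 6 (75.0%) at 72 h, beside the same 65.2% and 62.7% over all genes. DKC1, a pseudouridine synthase and telomerase component, was at 154 ± 9.69 and 145 ± 28.5 TPM, DAXX at 83.8 ± 17.9 and 66.8 ± 17.9 TPM, and ATRX, the DAXX partner, at 11.5, 18.6 and 30.6 TPM at 6 h and 34.5, 64.2 and 37.7 TPM at 72 h. TERF1, a telomere-binding protein, was at 31.01 ± 6.09 and 46.3 ± 4.66 TPM. The catalytic subunit gene TERT, named after its values were seen, was at 1.92 to 3.17 TPM at 6 h and at 0.201 to 0.630 TPM at 72 h.

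Of 32 receptor tyrosine kinase genes, 20 (62.5%) were detected at 6 h and 23 (71.9%) at 72 h, against 65.2% and 62.7% of all protein-coding genes. AXL, a receptor for GAS6, was at 166, 134 and 144 TPM at 6 h and at 73.1, 74.9 and 118 TPM at 72 h. EPHA2, an ephrin receptor, was at 117, 117 and 125 TPM at 6 h and at 42.4, 51.9 and 46.6 TPM at 72 h, and EPHB4 at 78.8 ± 2.03 and 54.9 ± 8.63 TPM. MET, the receptor for hepatocyte growth factor, was at 48.4 ± 2.33 and 67.8 ± 11.2 TPM (SD, n = 3 each). ERBB4 did not pass 0.936 TPM and MST1R did not pass 0.156 TPM. Of 27 ligand genes, 17 (63.0%) were detected in each table, at the share over all genes. After IGF2 came MDK, a heparin-binding growth factor of embryonic tissue, at 499 ± 19.1 and 498 ± 168 TPM, PDGFA, a ligand of the platelet-derived growth factor receptors, at 155 ± 7.45 and 130 ± 9.29 TPM, and VEGFB at 82.3 ± 3.87 and 72.3 ± 8.27 TPM. IGF1 was at 0.262 TPM or less, AREG at 0.839 TPM or less, and EREG had no count.

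Of 14 genes that beta-catenin signalling is known to raise, 12 (85.7%) were detected at 6 h and 11 (78.6%) at 72 h. Over all protein-coding genes the shares were 65.2% and 62.7%. At 10 TPM or more in all 3 libraries stood 6 of the 14 at 6 h and 4 at 72 h, against 45.6% and 42.3% of all protein-coding genes. Not detected were RNF43 and APCDD1 at 6 h and MYC, APCDD1 and LGR5 at 72 h, named after their values were seen. Besides CCND1, the detected genes included the feedback inhibitors ZNRF3, at 56.4 ± 8.28 and 43.6 ± 3.6 TPM, and AXIN2, at 29.9 ± 10.6 and 18.9 ± 6.14 TPM. LEF1, a transcription factor that beta-catenin binds, was at 38.9 ± 8.63 and 31.9 ± 13.98 TPM (SD, n = 3 each). The libraries of the 2 tables overlapped for CCND1, AXIN2 and LEF1. ZNRF3 was at 49.6 to 65.6 TPM at 6 h and 40.6 to 47.6 TPM at 72 h. The share of all genes without overlap, whatever the fold, was not counted. DKK1, a secreted WNT inhibitor, was at 95.7, 88.5 and 106.3 TPM at 6 h and at 3.44, 2.89 and 3.22 TPM at 72 h.

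Of 20 surface antigen and immune recognition genes, 17 (85.0%) were detected in each table. The shares over all protein-coding genes were 65.2% at 6 h and 62.7% at 72 h. B2M, the light chain of the class I molecules that present peptides to T cells, was at 151 ± 12.6 TPM at 6 h and at 197 ± 89.4 TPM at 72 h (SD, n = 3 each). HLA-B was at 75.4, 65.8 and 57.3 TPM at 6 h and at 45.9, 46.1 and 159 TPM at 72 h, where replicate 3 alone was above the 6 h libraries. NECTIN2, an adhesion molecule read by natural killer cells, was at 246 ± 11.6 and 127 ± 26.7 TPM. The class II gene HLA-DRA had no count, its activator CIITA stayed at 0.426 TPM or less, and CD274, the gene of PD-L1, at 0.876 TPM or less.

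Homeobox and other developmental transcription factors added a positional pattern. Of 39 HOX genes, 27 were at 1 TPM or more in all 6 libraries, where 61.61% of all protein-coding genes were. They were 10 of 11 in the HOXA cluster, 6 of 10 in HOXB, 8 of 9 in HOXC and 3 of 9 in HOXD. HOX genes of high number, which lie at the 5′ end of a cluster and act in the posterior body, held the highest levels in HOXA, HOXB and HOXC. HOXA13 was at 208, 219.9 and 205 TPM at 6 h and at 191, 147 and 162 TPM at 72 h. HOXA10 was at 260.3, 248.9 and 167 TPM at 6 h and at 93.6, 70.3 and 66.7 TPM at 72 h. The summed means of HOXA were 664 and 394 TPM, of HOXB 278 and 249.5 TPM, of HOXC 130.2 and 116 TPM, and of HOXD 32.2 and 19.6 TPM.

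**Figure D4:**
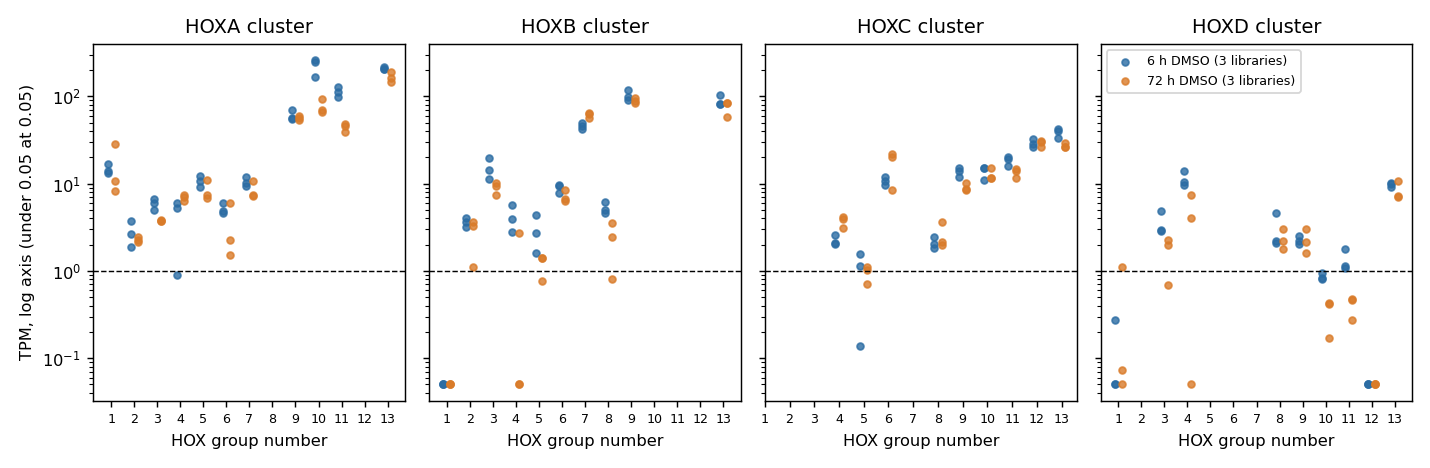
TPM on a log axis (y) of the HOX genes of the 4 clusters (panels) against their group number (x), with 1 point for each library, blue for 6 h and orange for 72 h, and a dashed line at 1 TPM. Genes numbered 9 to 13 reach the highest levels in HOXA and HOXB, up to 260.3 TPM for HOXA10, and most HOXD genes lie below 10 TPM.

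Among other families, the 2 members of highest level are named. SIX4 and SIX5 were at 21.5 ± 1.12 and 27.3 ± 5.95 TPM at 6 h. EYA3 and EYA4 were at 30.3 ± 2.80 and 13.3 ± 4.40 TPM at 6 h, and SALL2 at 49.5 ± 6.46 TPM. PAX6 and PAX9, the 2 PAX genes of 9 at 1 TPM or more in all 6 libraries, were at 3.51 ± 0.698 and 2.23 ± 0.457 TPM at 6 h. GATA2 and GATA4 were at 75.5 ± 12.8 and 25.1 ± 9.80 TPM, and SOX11 and SOX8 at 55.6 ± 7.79 and 58.9 ± 6.29 TPM at 6 h. LHX2, a LIM-homeodomain factor, was at 110.6, 98.8 and 121 TPM at 6 h and at 36.9, 34.7 and 11.6 TPM at 72 h. IRX2 and IRX1, Iroquois factors whose family patterns the nephron, were at 97.01 ± 6.06 and 83.0 ± 5.48 TPM at 6 h and at 28.2 ± 0.912 and 29.8 ± 11.3 TPM at 72 h. TBX20 and TBX2 were at 43.1 ± 1.45 and 41.0 ± 17.01 TPM, FOXM1, a factor of mitotic genes, at 69.9 ± 2.77 TPM, FOXK2 at 69.6 ± 6.88 TPM, MEIS3 at 41.7 ± 3.38 TPM and ZIC1 at 16.7 ± 0.980 TPM, all at 6 h (SD, n = 3 each). Of 4 HNF genes, 0 were at 1 TPM in all 6 libraries and 3 were below 1 TPM in all 6. HNF4G, named after its values were seen, was detected at 72 h alone, at 3.29, 2.68 and 2.71 TPM.

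Levels of the 2 tables were set side by side for 9474 genes at 10 TPM or more in all 3 libraries of a table. On the log2(TPM + 1) scale 461 genes (4.87%) were at least 2-fold higher at 72 h with no overlap of libraries and 868 (9.16%) were at least 2-fold lower. Without replicate 3 at 72 h these counts were 391 and 710, of which 300 and 604 were among the former. Scaled over all genes instead, they were 173 and 363. The median difference over the 9474 genes was -0.01. Among the 6 epithelial genes at this level, 1 was higher (EPCAM) and 4 were lower (CLDN3, KRT18, KRT19 and KRT8), with a median of -1.45. Of 13 intermediate filament genes 6 were lower, including the keratins named and LMNA, and of 13 ligands 4 were lower (HBEGF, PDGFB, TGFB1 and TGFB2). Among 33 Wilms tumor genes 3 were lower (AMER1, DGCR8 and TRIM28), among 11 mesenchymal genes 1 (TWIST2), and among 22 cell cycle genes 1 (CDKN2A). EPCAM, an epithelial adhesion molecule, was at 22.0, 23.5 and 21.9 TPM at 6 h and at 46.1, 41.9 and 54.8 TPM at 72 h. GPC3, a fetal glypican, was the only oncofetal gene in these counts, at 10.99, 10.6 and 11.2 TPM at 6 h and at 30.5, 20.2 and 28.4 TPM at 72 h.

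**Figure D5:**
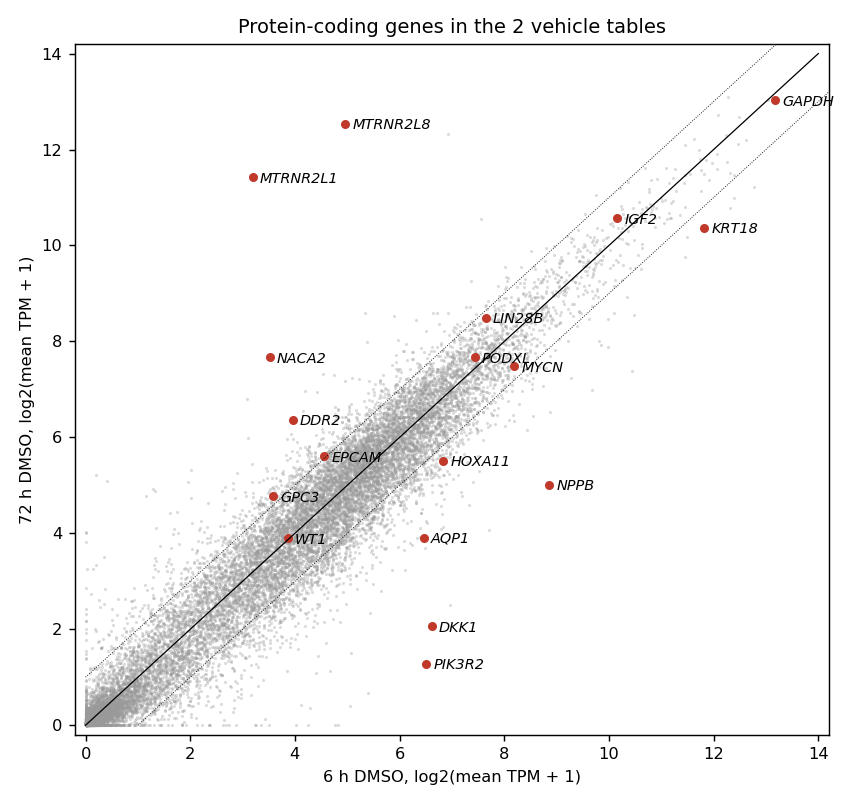
Mean level of each nuclear protein-coding gene at 6 h (x axis) and 72 h (y axis) as log2(TPM + 1), each point 1 gene, with the line of equal level and dotted lines at 2-fold. Most genes lie between the dotted lines, MTRNR2L8 and MTRNR2L1 far above them, and DKK1, PIK3R2 and NPPB below them.

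Most of the genes named here as farthest from equality have close copies elsewhere or overlap another gene on the same strand. How often this holds over all genes was not counted, and its part in the differences was not tested. MTRNR2L1, MTRNR2L8 and MTRNR2L12, nuclear copies of the mitochondrial gene MT-RNR2, were at 8.14 ± 1.29, 30.2 ± 1.64 and 121 ± 3.24 TPM at 6 h and at 2739 ± 840, 5951 ± 650 and 5150 ± 1169 TPM at 72 h (SD, n = 3 each). The share of MT-RNR2 itself was higher at 72 h, as given above, and whether reads of one were counted for the other was not tested. PPIAL4C, NACA2 and EIF2S3B belong to families with near-identical copies, and AC007192.1 and AC116366.3 overlap other genes on the same strand. PIK3R2, a regulatory subunit of phosphoinositide 3-kinase, was at 80.3, 63.7 and 126 TPM at 6 h and at 0.927, 1.86 and 1.51 TPM at 72 h, while AC007192.1, which overlaps it, was at 0.142 ± 0.140 TPM at 6 h and 36.4 ± 8.56 TPM at 72 h. GP1BB overlaps SEPT5 and had no count at 72 h, and AC010422.3, AC009477.2, NPIPA8 and MATR3 likewise overlap other genes or share a symbol. DKK1 and NPPB, the gene of a natriuretic peptide, overlap no other gene on their strand. NPPB was at 658, 502 and 224 TPM at 6 h and at 26.3, 17.3 and 50.4 TPM at 72 h.

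Of the 8 genes with the widest spread between replicates, 4 in each table, all but HIST1H2AC overlap another gene on the same strand. How common such overlap is over all genes was not counted, and its part in the spread was not tested. At 6 h HIST2H3PS2 was at 0.561, 335 and 284 TPM, ZNF358 at 106.1, 0.0396 and 127 TPM, AC005943.1 at 82.4, 0 and 0 TPM and AP002990.1 at 826, 28.7 and 11.3 TPM. At 72 h HIST1H2AC was at 11.6, 713 and 5.97 TPM, AC138811.2 at 0, 286 and 49.9 TPM, RPL17-C18orf32 at 0, 0 and 219 TPM and MSANTD3-TMEFF1 at 0, 0 and 85.0 TPM. The last 2 are readthrough genes that share exons with both of their partners. Over genes with a mean of 10 TPM the median coefficient of variation was 10.8% at 6 h and 20.6% at 72 h. At 6 h the deviation of a library went with gene length, with Spearman's rho over 9534 genes of -0.353 in replicate 1, -0.08 in replicate 2 and 0.376 in replicate 3. Genes with at least 8 kb of exon were lower in replicate 1 (median log2 -0.24 from the table's mean) and higher in replicate 3 (0.28). MKI67, with 12807 bases of exon, had that order at 6 h, and the part of length in its spread was not tested.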

How the data were processed

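Total RNA of vehicle-treated WiT49 cells was sequenced in 6 libraries, 3 after 6 h and 3 after 72 h. The authors deposited 1 table for each time point, whose values were taken to be estimated counts (expected counts) per gene and were already whole numbers. The submitters' processing notes name HISAT2, StringTie and hg38. The counting program, the use of strand and the handling of reads with several positions are not given in the sources used here. Totals per library were 40221994 to 69240041 counts, and the median protein-coding gene with counts held 517 to 1069.

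Gene IDs were matched without version to GENCODE 29 (57881 of 58219 IDs, 99.4%). Unmatched IDs held at most 0.0295% of the counts. TPM was computed from counts and the union of exons, over the 19767 nuclear protein-coding genes, with a pseudocount of 1 TPM for differences between tables. Values depend on how the authors divided reads among overlapping genes and near-identical copies. Groups came from the labels, and only the 6 DMSO columns of 12 in the 2 tables were used. No test was made between tables, and errors are SD over 3 libraries. The calculation of levels was run on counts simulated from the same gene lengths with sampling noise only. That run covers the arithmetic, and not how reads were assigned or how far real replicates differ.

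Members and gene lists (24 lists, 354 genes) were chosen with earlier results of these data known. Genes named are the 15 highest protein-coding genes of each table and the 6 highest long non-coding genes. In each list they are up to 4 members at 10 TPM or more and up to 3 below 1 TPM in all 6 libraries, plus the first 6 of the nephron progenitor and Wilms tumor lists. Further named genes are the 8 largest differences between tables in each direction, the 4 widest spreads of each table and up to 2 members of each transcription factor family. Others are said to be named after their values were seen. Some genes that this rule names are not reported here. Promoters came from RefSeq (GRCh38.p14), matched by symbol for 15240 of 19713 genes (77.3%). Python 3.11.15, numpy 2.4.6, pandas 2.3.3 and matplotlib 3.10.9 were used, and TMM factors came from edgeR 4.0.16 in R 4.3.3. Alternatives were other gene lengths, scalings, thresholds and pseudocounts and leaving out each replicate.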

Additional observations from a re-analysis of the deposited data

How the results depend on the processing

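Of the recomputed values of the main results, 131 stayed close to the value reported and 13 moved. These main results are counts and shares, which have no direction to change. The share of TPM in the 100 highest genes depended on the scale: it was 21.0% at 6 h and 21.9% at 72 h with mean transcript length, 6.34% and 6.04% when scaled over all genes, and 15.6% and 15.95% of counts without length scaling. The protein-coding share was 80.8% and 81.2% with mitochondrially encoded genes left out. Of the nephron progenitor genes 13 were detected at 6 h at 0.5 TPM, and 3 in each table at 10 TPM. Scaled over all genes, 173 genes were at least 2-fold higher and 363 lower at 72 h. Leaving out 1 replicate gave 391 to 666 higher and 710 to 1271 lower. Of the other values, 189 TPM values of named genes stayed close and 77 moved, 191 log2 differences stayed close and 29 moved, and 318 list counts stayed close and 42 moved. No paired analysis was possible because the results come from no test and the tables are set side by side only. With 3 libraries a table, and a median coefficient of variation of 20.6% at 72 h, small differences between tables are not resolved.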

Other observations

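The collagen genes were looked at after their values were seen. COL3A1 led them at 962 ± 282 TPM at 6 h and 1013 ± 168 TPM at 72 h, followed by COL2A1, the main fibrillar collagen of cartilage, at 334, 361 and 384 TPM at 6 h and at 439, 639 and 423 TPM at 72 h (SD, n = 3 each). COL1A1 was at 242, 243 and 322 TPM at 6 h and at 234, 339 and 287 TPM at 72 h. COL1A2, which encodes the partner chain in type I collagen, was listed at 0 in all 6 vehicle libraries and in all 12 libraries of both tables. Whether this 0 reflects the cells, the annotation or the counting was not tested. COL11A1, a minor fibrillar collagen, was at 63.9, 99.7 and 106.3 TPM at 6 h and at 157, 237 and 493 TPM at 72 h.

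Several paralogs were unequal in every vehicle library, and these pairs too were picked after their values were seen. LIN28B exceeded LIN28A from 179.7-fold to 468-fold, PDGFRB exceeded PDGFRA from 105.9-fold to 401-fold, and HOXA11 exceeded HOXD11 from 63.2-fold to 165-fold. ZEB1 exceeded ZEB2 from 7.55-fold to 27.4-fold, and SNAI1 exceeded SNAI2 from 7.91-fold to 49.9-fold.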
